A study of Mus musculus with 10 samples.

Results

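The subject is a set of 10 immediate early genes that belong to neither the AP-1 nor the Egr family, measured in mouse embryonic stem cell (ESC) lines: Ier2, Ier3, Ier5, Btg2, Zfp36, Zfp36l1, Nr4a1, Arc, Myc and Phlda1. They are among the 20206 genes in the table of expression values. The 10 symbols were given, and the only measured value in the rule was the mean over all lines, meant to choose among rows of 1 symbol. Each symbol had a single row, so it decided nothing. The list was put together after diet differences in these same lines were known, so the differences below describe the genes that were picked and are no independent evidence for them. They are called serum-induced after their textbook behaviour. No serum was added or withdrawn in the experiment, and the lines were grown for RNA in a serum replacement medium with LIF and without feeder fibroblasts.

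The cells were undifferentiated wild-type C57Bl/6 ESC lines, all labelled male. They had been derived from blastocysts of mothers fed either a low protein diet (LPD, 9% casein) or an isocaloric normal protein diet (NPD, 18% casein) from mating to the blastocyst stage. There were 5 LPD lines (numbers 1, 4, 6, 20 and 40) and 5 NPD lines (numbers 8, 15, 21, 36 and 51). Each line came from a different mother and was taken as 1 replicate. Each was derived and passaged in culture after the diet had ended, so a difference between diets is read against the spread between lines. Values are normalised read counts per gene, and fold changes are LPD minus NPD on the log2(value + 1) scale.

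Immediate early genes are transcribed within minutes of a growth factor or stress signal, without any need for new protein synthesis. ERK and p38 kinases activate the ternary complex factors and CREB at their promoters, and serum response factor (Srf) binds a CArG box there. Their mRNAs are short-lived, in part because AU-rich elements in the 3′ untranslated region recruit proteins that remove the poly(A) tail. The members differ in what they do afterwards. Ier2, Ier3 and Ier5 encode small regulators of transcription and survival. Btg2, Zfp36 and Zfp36l1 act on mRNA decay. Nr4a1 and Myc are transcription factors, and Arc and Phlda1 encode cytoplasmic proteins.

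Promoter sequences were available in RefSeq (GRCm38.p6) for 6 of the 10 members, Ier3, Ier5, Btg2, Zfp36, Zfp36l1 and Nr4a1. The 250 bases before the start are shown for 4 of them because they hold letters of a known early gene element. They are given 5′ to 3′ on the strand of the gene, with the matched element in capitals.
Zfp36 promoter, chr7:28379229-28379478, minus strand: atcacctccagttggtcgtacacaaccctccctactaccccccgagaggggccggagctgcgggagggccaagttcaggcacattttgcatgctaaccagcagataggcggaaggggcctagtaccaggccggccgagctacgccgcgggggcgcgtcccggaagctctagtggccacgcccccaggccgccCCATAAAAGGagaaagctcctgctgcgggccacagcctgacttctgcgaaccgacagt
Btg2 promoter, chr1:134079156-134079405, minus strand: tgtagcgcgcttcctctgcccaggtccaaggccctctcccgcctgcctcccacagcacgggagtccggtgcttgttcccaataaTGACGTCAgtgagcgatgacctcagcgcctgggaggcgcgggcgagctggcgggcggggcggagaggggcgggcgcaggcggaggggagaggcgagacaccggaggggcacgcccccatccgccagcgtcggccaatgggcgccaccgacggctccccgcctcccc
Nr4a1 promoter, chr15:101266596-101266845, plus strand: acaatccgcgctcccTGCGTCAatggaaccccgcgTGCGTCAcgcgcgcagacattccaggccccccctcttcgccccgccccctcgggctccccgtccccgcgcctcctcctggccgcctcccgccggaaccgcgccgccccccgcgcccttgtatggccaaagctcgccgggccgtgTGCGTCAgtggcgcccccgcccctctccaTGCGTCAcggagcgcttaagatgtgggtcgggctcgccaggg
Ier3 promoter, chr17:35821463-35821712, plus strand: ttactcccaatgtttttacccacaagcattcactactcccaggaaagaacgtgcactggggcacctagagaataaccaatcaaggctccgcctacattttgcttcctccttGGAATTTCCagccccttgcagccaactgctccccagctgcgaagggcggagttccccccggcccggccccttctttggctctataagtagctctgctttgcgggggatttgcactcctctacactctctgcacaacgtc
Zfp36 carried a CArG box (CC, 6 letters A or T, GG) 58 to 49 bases before the start, a motif that 1.47% of 32851 promoters of this length hold. Btg2 carried a cAMP response element (TGACGTCA) at 166 to 159 bases, held by 1.55% of promoters. Nr4a1 carried 4 copies of the related element TGCGTCA, at 235 to 229, 215 to 209, 71 to 65 and 42 to 36 bases, and 1.75% of promoters hold at least 1 copy. Ier3 carried the NF-kB letters GGAAATTCC on the other strand, 139 to 131 bases before the start, held by 0.286% of promoters. Zfp36l1, not shown, held TGATTCA, a match to TGANTCA, at 129 to 123 bases (6.75% of promoters) and TATAAA on the gene strand at 29 to 24 bases (7.59%). None of these motifs was found in the Ier5 window. Both strands were searched except for TATAAA, and the motifs were chosen with the sequences in view. The RefSeq start differs from the GENCODE gene start for Zfp36, Nr4a1, Ier3 and Btg2. A match is a description of letters and not of binding.

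The 3′ untranslated regions of 3 members, Zfp36, Zfp36l1 and Phlda1, held the nonamer TTATTTATT, the core of the AU-rich element that ZFP36 proteins bind. The sites are shown with 8 bases on either side and the nonamer in capitals, from the GENCODE M21 transcripts (GRCm38).
Zfp36 site, bases 589 to 597 of the region: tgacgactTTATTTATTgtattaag
Zfp36l1 site, bases 1404 to 1412 of the region: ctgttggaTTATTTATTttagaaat
Phlda1 site, bases 325 to 333 of the region: gattatgaTTATTTATTagtttttt
Of 21027 genes, 7.66% held the nonamer. Among genes whose region was within 20% of the same length, the share was 4.01% for Zfp36, 10% for Zfp36l1 and 3.56% for Phlda1. The shorter core ATTTA was found 9 times in Zfp36l1, 5 times in Ier3 and Btg2, 3 times in Zfp36, Nr4a1 and Phlda1, 2 times in Ier5 and Myc, and 0 times in Ier2 and Arc. Among genes of like length, at least as many copies were held by 3.42% for Ier3, 5.56% for Zfp36l1, 11.8% for Nr4a1 and 14.3% for Phlda1. The share was 19.2% for Zfp36, 21.1% for Myc, 39.1% for Btg2 and 78.7% for Ier5.

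Depth was estimated by dividing what each line sums to by what a single read was worth in it. It ranged from 5857559 to 24294206 reads in the LPD lines (median 12302847) and from 20274765 to 23173933 in the NPD lines (median 22188138), so depth moved with diet. All 10 members had at least 3 reads in every line. The fewest reads behind any value were 35 (Ier5 in LPD line 4), and for Ier2 they were 1829 (LPD line 6). In LPD line 4 and NPD line 15 the Y-linked gene Ddx3y was low for lines labelled male, at 174 in the former and 7.7 in the latter, where the other 8 were at 1110 to 1493, and the median log2 deviation of 334 X-linked genes was 0.0 in the former and 0.49 in the latter. The main results are given with and without both lines. 

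As a group the members were higher in LPD lines. The mean log2 value was higher in LPD for 9 of the 10 members, against 50.5% of all 14354 genes tested, and the median log2 fold change was 0.57 against 0.00 over all genes. It was at least 0.4 in 8 members, against 5.7% of all genes. With limma, 5 members (Ier2, Zfp36, Nr4a1, Arc and Phlda1) had an unadjusted p under 0.05 and all were higher in LPD, where 2.84% of all genes were higher at that p and 2.18% were lower. None had an adjusted p under 0.1, a level at which 0 genes in the whole table were called (0%), although 721 (5.02%) passed the unadjusted threshold. Across the table no adjusted p was below 0.207. The diets overlapped in every member, and in all but 0.523% of genes the 5 LPD values were not all above the 5 NPD values. At least 3 of the 5 LPD lines were above every NPD line in 6 members (10.6% of genes). At least 4 of the 5 LPD lines were above every NPD line for Zfp36, Nr4a1, Arc and Phlda1, as for 3.09% of genes. In a two-sided exact permutation test over every assignment of 5 and 5 lines, with a smallest possible p of 0.00794, these same 4 members had p under 0.05, as had 2.8% of all genes in that direction. Without LPD line 4 and NPD line 15, 4 members (Zfp36, Nr4a1, Arc and Phlda1) stayed below the unadjusted limma threshold of 0.05 (2.47% of all genes were higher at it), and their differences on the log2 scale were 0.64, 0.83, 1.56 and 1.25. With 4 and 4 lines left, an exact permutation test gave no member a p under 0.05, the lowest being 0.0571 (Nr4a1). With the log2 depth as a covariate 3 remained, Nr4a1, Arc and Phlda1 (2.26% of all genes). With array weights there were 7 (458 of 14354 genes were higher at that p), Btg2 and Zfp36l1 being the additional ones.

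**Figure D1:**
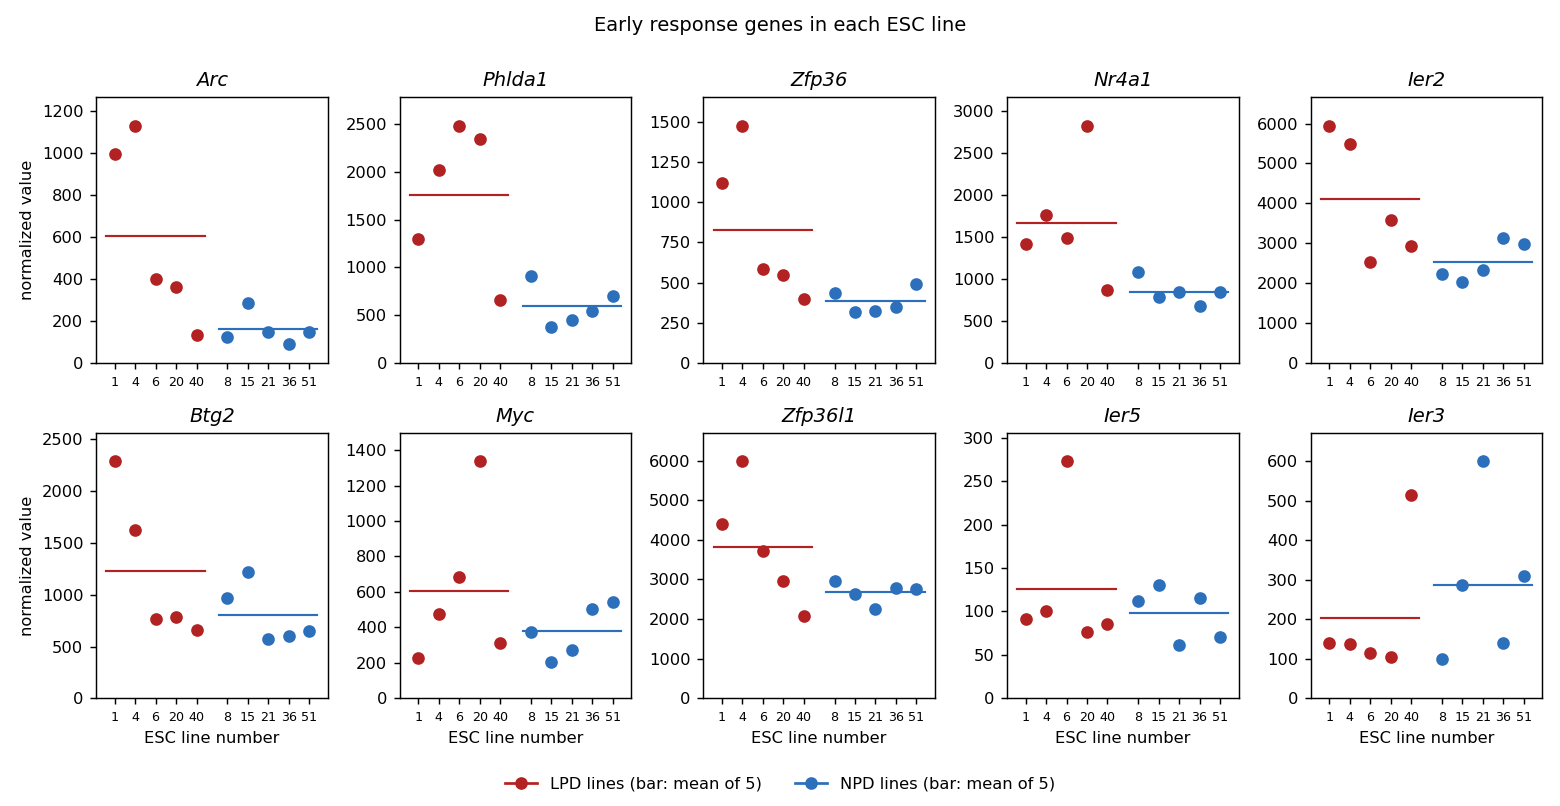
Normalised read count of each of the 10 members in each ESC line, named by line number, on a linear axis from 0, with LPD lines in red, NPD lines in blue and the mean of each 5 as a bar. For Zfp36, Nr4a1, Arc and Phlda1, 4 LPD points lie above all 5 NPD points while LPD line 40 lies among them.

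**Figure D2:**
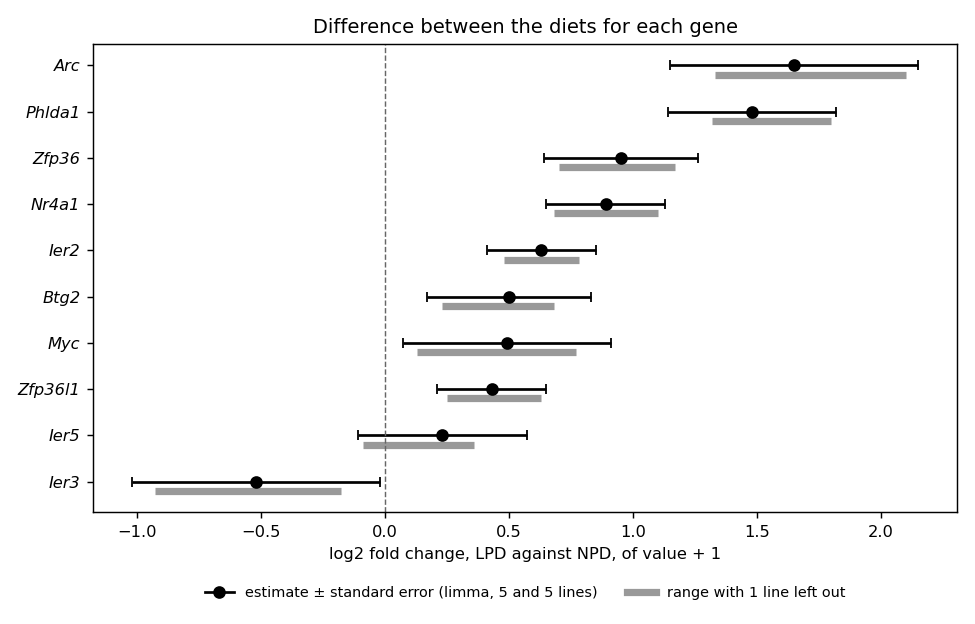
Log2 fold change (LPD minus NPD) of each member with its standard error from limma (black), above a grey bar for the range obtained when each line is left out in turn. Arc (1.65) and Phlda1 (1.48) lie farthest above 0, Ier3 (-0.52) is the only member below it, and only the range of Ier5 crosses 0.

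Phlda1 encodes a pleckstrin homology-like protein that dampens growth factor signalling and survival (ENSMUSG00000020205, chr10:111506286-111508645, plus strand). It was at 1303, 2023, 2486, 2343 and 655 in LPD lines 1, 4, 6, 20 and 40, and at 912, 376, 445, 548 and 699 in NPD lines 8, 15, 21, 36 and 51. Every LPD line but line 40 was above every NPD line. The means were 1762 ± 769 (SD, n = 5) and 596 ± 215 (SD, n = 5), a log2 fold change of 1.48 (SE 0.34) or 2.8-fold. The exact permutation p was 0.0238 and the limma adjusted p was 0.435. The study itself tested transcripts, not genes, in these lines. It listed a Phlda1 transcript as higher in LPD at a false discovery rate under 0.1, a level the gene value did not reach here. Without LPD line 40 the limma adjusted p was 0.0219, the lowest of a range that reached 0.999 over the alternatives.

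Arc encodes a retroviral Gag-like protein best known from synapses (ENSMUSG00000022602, chr15:74669083-74672570, minus strand). It was at 995, 1132, 402, 364 and 133 in the LPD lines, in the order above, and at 125, 285, 150, 91.5 and 147 in the NPD lines. LPD lines 1 and 4 were far above the others, lines 6 and 20 were above every NPD line, and line 40 was among the NPD lines. The means were 605 ± 434 and 160 ± 73.7 (SD, n = 5 each), a log2 fold change of 1.65 (SE 0.50) or 3.13-fold, the largest of the 10 members. The exact permutation p was 0.0317, and an exact Mann-Whitney test gave p = 0.0556. The limma adjusted p was 0.681 and ranged from 0.0941, without LPD line 40, to 1. Leaving out LPD line 4 lowered the log2 fold change to 1.33.

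Nr4a1 encodes the orphan nuclear receptor Nur77, a transcription factor regulated mainly by its own induction (ENSMUSG00000023034, chr15:101254269-101274795, plus strand). It was at 1419, 1756, 1483, 2825 and 871 in the LPD lines and at 1080, 785, 844, 680 and 844 in the NPD lines. LPD line 20 was the highest, and line 40 was the only LPD line within the NPD range. The means were 1671 ± 721 and 847 ± 147 (SD, n = 5 each), a log2 fold change of 0.89 (SE 0.24) or 1.86-fold, with an exact permutation p of 0.0159. The limma adjusted p was 0.573, and ranged from 0.0715, without LPD line 40, to 1. Its promoter is the one shown above with 4 TGCGTCA elements.

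Zfp36 encodes tristetraprolin, a zinc finger protein that binds AU-rich elements and speeds the decay of early gene mRNAs, its own included (ENSMUSG00000044786, chr7:28376784-28380253, minus strand). It was at 1117, 1476, 587, 548 and 398 in the LPD lines and at 437, 320, 324, 346 and 494 in the NPD lines. LPD lines 1 and 4 stood well above all others, and line 40 lay among the NPD lines. The means were 825 ± 454 and 384 ± 77.4 (SD, n = 5 each), a log2 fold change of 0.95 (SE 0.31) or 1.94-fold, with an exact permutation p of 0.0238. The limma adjusted p was 0.741. With depth as a covariate its log2 fold change was 0.71, with an unadjusted limma p of 0.0776.

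Zfp36l1, another member of that protein family, differed less between diets and did not pass the test (ENSMUSG00000021127, chr12:80107754-80113013, minus strand). It was at 4389, 5986, 3720, 2953 and 2084 in the LPD lines and at 2958, 2621, 2250, 2795 and 2752 in the NPD lines. Lines 1, 4 and 6 were above every NPD line, and line 40 was below every NPD line. The means were 3826 ± 1483 and 2675 ± 267 (SD, n = 5 each), a log2 fold change of 0.43 (SE 0.22) or 1.35-fold, and the exact permutation p was 0.151. The log2 fold change was 0.25 without LPD line 4, 0.24 with depth as a covariate, and 0.63 without LPD line 40, where it passed an unadjusted limma p of 0.05. Per kilobase of transcript, Zfp36l1 was above Zfp36 in every line, with a median ratio of 5.56, and the ratio ran from 3.67 in LPD line 1 to 7.65 in NPD line 15 (7.53 at most without LPD line 4 and NPD line 15). Its median was 4.89 in LPD and 6.49 in NPD lines.

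Btg2, an antiproliferative p53 target whose protein binds the CCR4-NOT deadenylase, followed the same lines (ENSMUSG00000020423, chr1:134075170-134079120, minus strand). It was at 2291, 1626, 766, 789 and 660 in the LPD lines and at 965, 1216, 573, 602 and 651 in the NPD lines. Only LPD lines 1 and 4 were above all NPD lines, and the other 3 lay within their range. The means were 1226 ± 710 and 801 ± 280 (SD, n = 5 each), a log2 fold change of 0.50 (SE 0.33) or 1.41-fold, with an exact permutation p of 0.262. Without LPD line 1 it was 0.23, and with array weights it was 0.76.

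Ier2, which encodes a small nuclear protein, was the most abundant member (ENSMUSG00000053560, chr8:84661331-84662852, minus strand). It was at 5949, 5487, 2542, 3577 and 2939 in the LPD lines and at 2221, 2019, 2325, 3127 and 2986 in the NPD lines. LPD lines 1, 4 and 20 were above every NPD line. The means were 4099 ± 1532 and 2535 ± 491 (SD, n = 5 each), a log2 fold change of 0.63 (SE 0.22) or 1.55-fold. The exact permutation p was 0.0556 and the limma adjusted p was 0.845. With depth as a covariate its log2 fold change was 0.60, with an unadjusted limma p of 0.0558. Without LPD line 4 and NPD line 15 it was 0.43, with an unadjusted limma p of 0.0925.

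Myc encodes the bHLH-zipper factor that drives ribosome and nucleotide synthesis genes (ENSMUSG00000022346, chr15:61985391-61990374, plus strand). It was at 229, 475, 684, 1338 and 310 in the LPD lines and at 373, 204, 271, 505 and 544 in the NPD lines. The LPD lines held both the highest value, in line 20, and one of the lowest, in line 1, and the diets overlapped. The means were 607 ± 444 and 379 ± 146 (SD, n = 5 each), a log2 fold change of 0.49 (SE 0.42), with an exact permutation p of 0.397, and fell to 0.13 without line 20. It was 0.24 with array weights and 0.77 without line 1. Its relative Mycn was above it per kilobase with a median ratio of 5.22, from 1.38 in LPD line 20 to 16.7 in NPD line 15 (11.5 at most without LPD line 4 and NPD line 15).

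Ier5, a relative of Ier2 that acts on the heat shock factor Hsf1, had the lowest levels (ENSMUSG00000056708, chr1:155096361-155099636, minus strand). It was at 91.7, 101, 273, 76.7 and 85.4 in the LPD lines and at 112, 130, 61.1, 115 and 71 in the NPD lines. LPD line 6 alone was above the NPD lines, and the other 4 lay within their range. The means were 125 ± 82.9 and 97.9 ± 30 (SD, n = 5 each), a log2 fold change of 0.23 (SE 0.34), with an exact permutation p of 0.659, and turned to -0.09 without line 6. It was 0.10 with depth as a covariate and 0.51 with every line thinned to the lowest depth.

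Ier3, a regulator of apoptosis and an NF-kB target, was the only member with a lower LPD mean (ENSMUSG00000003541, chr17:35821684-35822923, plus strand). It was at 139, 138, 115, 106 and 515 in the LPD lines and at 99.2, 288, 601, 139 and 309 in the NPD lines. LPD line 40 and NPD line 21 were the highest, and the other 4 LPD lines were close together. The means were 203 ± 175 and 287 ± 198 (SD, n = 5 each), a log2 fold change of -0.52 (SE 0.50), with an exact permutation p of 0.405. It ranged from -0.93 without LPD line 40 to -0.18 without NPD line 21.

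Line by line, LPD lines 1, 4 and 6 each had 7 of the 10 members above all NPD lines and line 20 had 6, against 18.4%, 19%, 22.3% and 23.2% of all genes in the same lines. LPD line 40 had 0, against 22% of genes, and had Zfp36l1 below all NPD lines, as 22.1% of genes were. Line 1 held the highest value of all 10 lines for Ier2 and Btg2, line 4 for Zfp36, Zfp36l1 and Arc, line 6 for Ier5 and Phlda1, line 20 for Nr4a1 and Myc, and line 40 for none. Over all genes these lines were the highest in 10.1%, 10.2%, 13.3%, 14.4% and 13.5%. LPD line 4 was also the shallowest line and one of the lines with low Ddx3y. NPD line 15, the other such line, was the lowest of the 10 lines for Ier2, Zfp36, Myc and Phlda1. It was the highest NPD line for Arc, Btg2 and Ier5. The share of all genes for which it was lowest was not worked out.

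**Figure D3:**
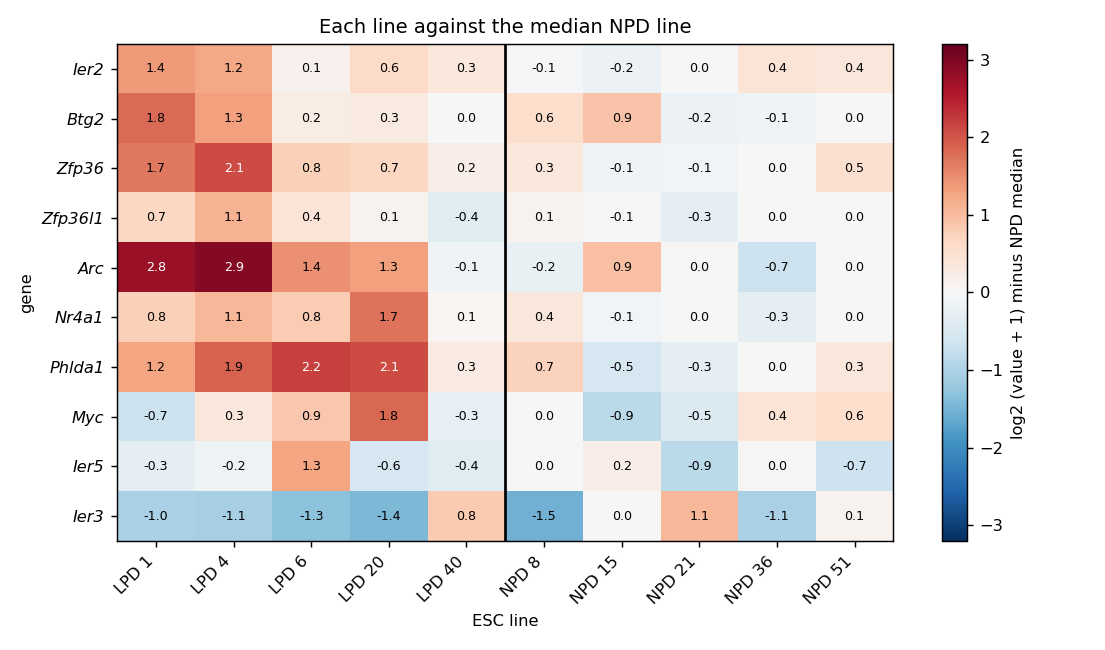
Heat map of log2(value + 1) minus the median of the 5 NPD lines, with a row per member and a column per ESC line, red above and blue below that median. LPD lines 1 and 4 are the highest for Ier2, Btg2, Zfp36, Zfp36l1 and Arc, lines 6 and 20 for Phlda1 and Myc, and LPD line 40 is within the range of the NPD lines for every member but Zfp36l1.

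Levels per kilobase of transcript were ordered by their mean over the 10 lines, both diets together. Ier2 was highest at 2179 ± 889 (SD, n = 10), above Zfp36l1 (1087 ± 392) in 10 of 10 lines. Zfp36l1 was above Phlda1 (605 ± 417) in 8 lines, Btg2 (370 ± 203) above Zfp36 (217 ± 138) in 10, and Arc (125 ± 123) above Ier5 (34.1 ± 18.5) in 9. The other neighbours did not differ beyond their spread in an exact paired permutation test over the lines. Phlda1 was above Nr4a1 (493 ± 257) in 7 lines (exact p = 0.486), Nr4a1 above Btg2 in 8 (exact p = 0.0898), and Zfp36 above Ier3 (217 ± 161) in 6 (exact p = 0.807). Ier3 was above Myc (211 ± 143) in 5 lines (exact p = 0.936), and Myc above Arc in 7 (exact p = 0.0547). The order of means was not the same in each diet. Phlda1 (904 ± 395, SD, n = 5) was above Nr4a1 (654 ± 282) in LPD and below it in NPD (306 ± 110 against 332 ± 57.5), and Ier3 was the ninth in LPD (179 ± 155) and above Myc (162 ± 62.5) and Zfp36 (138 ± 27.7) in NPD (254 ± 175).

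Among themselves, over the same 10 lines and as a description only, Zfp36 and Zfp36l1 had a Pearson r of 0.92, Nr4a1 and Phlda1 of 0.90, and Zfp36 of 0.88 with both Ier2 and Arc. Ier3 was negative with every other member, from -0.34 to -0.70. Of all genes tested, the one most like Zfp36 and also the one most like Arc was Jun (r of 0.94 and 0.95). For Phlda1 it was Dusp5 (0.97), for Nr4a1 Atf4 (0.94), for Myc Noct (0.97), for Btg2 Ube2b (0.98), for Ier2 Tex19.1 (0.96), for Zfp36l1 Rbm15 (0.96), for Ier5 Krt18 (0.95) and for Ier3 Mrpl17 (0.94). The best r of a gene has a median of 0.95 over all genes in these 10 lines, and depth and diet differ among the same lines. Without LPD line 4 and NPD line 15 the r of Zfp36 was 0.86 with Zfp36l1, 0.80 with Ier2 and 0.92 with Arc, and that of Nr4a1 and Phlda1 was 0.89.

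Of 20 other primary response genes, all tested, 10 had an unadjusted limma p under 0.05 and were higher in LPD, and 0 were lower. Over all genes 2.84% were higher and 2.18% lower at that p. The median log2 fold change was 0.51 against 0.00 over all genes. This list, too, was chosen with earlier results of these lines known. Without LPD line 4 and NPD line 15, 8 were higher (2.47% of all genes) and 0 lower at that p, with a median of 0.47. Ifrd1, a transcriptional coregulator, was at 1486 ± 198 in LPD and 1011 ± 136 in NPD (SD, n = 5 each), a log2 fold change of 0.56 (SE 0.12), with each LPD line above each NPD line, an exact permutation p of 0.00794 and a limma adjusted p of 0.371. The study picked an Ifrd1 transcript on these lines too. Ccn1, a matricellular protein gene driven by Srf, was at 10567, 10390, 5290, 5812 and 1330 in the LPD lines and 1705, 1238, 991, 1345 and 1482 in the NPD lines, a log2 fold change of 2.01 (SE 0.45, exact permutation p of 0.0317). LPD line 40 was again within the NPD range. Without LPD line 4 and NPD line 15 the log2 fold change was 1.75 for Ccn1 and 0.46 for Ifrd1.

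Upstream, Srf itself was at 2121, 2314, 2107, 2347 and 1136 in the LPD lines and 689, 933, 1118, 976 and 1276 in the NPD lines. Its log2 fold change was 0.99 (SE 0.21), with an exact permutation p of 0.0159 and a limma adjusted p of 0.341, and it was 0.91 without LPD line 4 and NPD line 15. LPD lines 1, 4, 6 and 20 were close to each other and above every NPD line, whereas line 40 was not. Srf is on the list of primary response genes as well. Of the 18 upstream kinases and factors, only Srf and Rps6ka3, a kinase below ERK (0.46, SE 0.19), had an unadjusted limma p under 0.05. Both were higher, as 2.84% of all genes were at that p, and the list median was 0.03. The NF-kB subunit gene Rela was at 0.30 (unadjusted p = 0.111 with limma). All of these are mRNA values, which do not measure kinase activity. By immunoblot of its ESC lines, the paper reported reduced ERK phosphorylation in LPD and no change in that of p38. How this relates to the early genes was not tested.

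Of 14 close relatives of the members, 13 were tested, with a median of 0.10. At an unadjusted limma p under 0.05 there were 2, both higher, as 2.84% of all genes were. These were Btg3 (0.29, SE 0.10, exact permutation p of 0.0159) and Phlda2 (0.54, SE 0.16, exact permutation p of 0.0159), with limma adjusted p of 0.839 and 0.681. Phlda3, a p53-induced relative, was above Phlda1 per kilobase in 7 of the 10 lines, and its median ratio to Phlda1 was 0.957 in LPD and 2.22 in NPD lines. Nr4a1 was 56.8 times Nr4a2 and 87.8 times Nr4a3 by median ratio per kilobase, Btg2 2.39 times Btg1, and Zfp36l1 2.27 times Zfp36l2.

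On 4 further lists, of genes that act with or below the members and of heat shock genes, the medians were near that of all genes. In them 0 genes had an unadjusted limma p under 0.05, against 5.02% of all genes. The list for the CCR4-NOT deadenylase, which ZFP36 and BTG proteins recruit, held 12 genes, one of them Pabpc1, which encodes the cytoplasmic poly(A)-binding protein and is not a subunit of the complex. Its median was 0.01, with Cnot1 at -0.08, Cnot8 at -0.07 and Pabpc1 at -0.09. Cnot8 had an exact permutation p of 0.0397, with 4 LPD lines below every NPD line. Its limma p was 0.308 unadjusted and 0.994 adjusted. The share of all genes that were lower in LPD at that permutation p was not worked out. The 9 genes of the Myc partner network had a median of -0.05, among them the repressor Mnt at 0.40, Mxd1 at 0.31 and Mxd3 at -0.38. The 14 Myc target genes had a median of -0.05, with Polr1b at -0.19, Srm at -0.20 and Shmt2 at 0.18. The 10 heat shock genes had a median of 0.00, with Hsph1 at -0.15, Hspa1b at -0.25 and Bag3 at 0.13. A p that misses the threshold does not show that these genes did not differ.

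**Figure D4:**
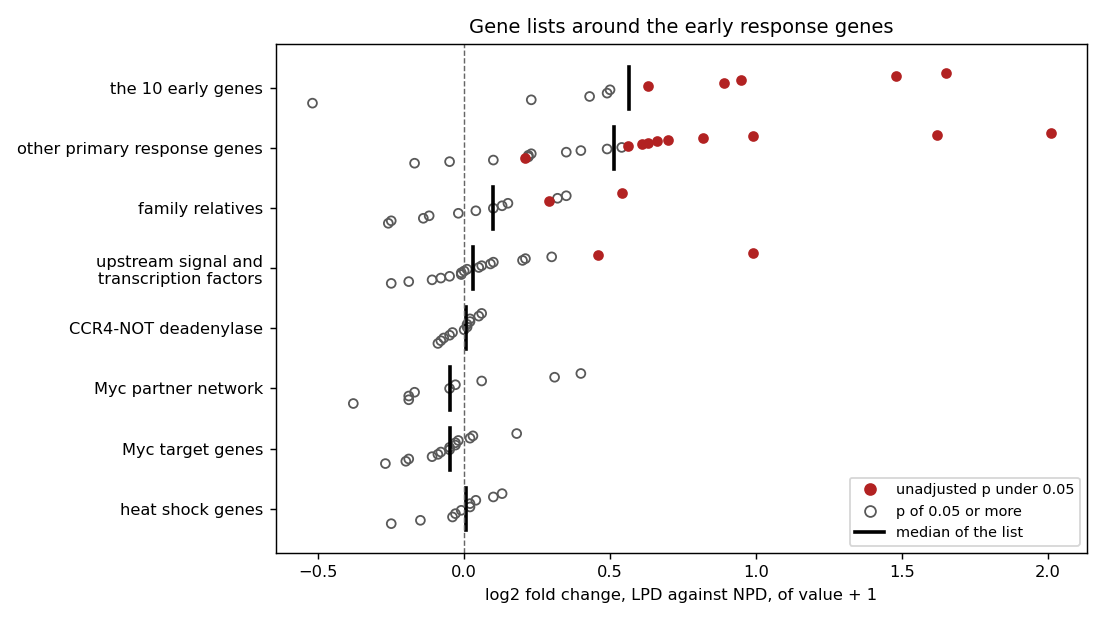
Log2 fold change (LPD minus NPD) of the 10 members and of each gene on 7 lists of related genes (cell type markers are not drawn), one row of points per list, with the list median as a bar and genes of unadjusted p under 0.05 in filled red. The members and the other primary response genes are centred at 0.57 and 0.51, and the medians of the other 6 lists drawn lie between -0.05 and 0.10.

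Markers of ESC and of other cells were summed in each line. Pluripotency marker sums were 96749 to 126817 in LPD and 90940 to 125437 in NPD lines, and 0 of 8 markers had an unadjusted p under 0.05. Fibroblast marker sums, over all 10 listed genes, were 517, 820, 5919, 464 and 680 in the LPD lines and 2655, 6053, 667, 2047 and 818 in the NPD lines. Of the 7 genes tested, 6 had a lower mean log2 value in LPD (median -0.88, none with an unadjusted limma p under 0.05). Trophectoderm marker sums were 4580, 4815, 10338, 3301 and 3602 in LPD and 6103, 6224, 3830, 3811 and 3071 in NPD. LPD line 6, highest in Ier5 and Phlda1, was also the highest there. It was the highest of the 10 lines in Krt8 (4577), Krt18 (3053) and Gata3 (265). Its Cdx2 (29.2), Eomes (382), Elf5 (1.92) and Tfap2c (2030) lay within the range of the other lines. Of 6 trophectoderm markers tested, 5 had a higher mean log2 value in LPD (median 0.28). Primitive endoderm marker sums were 645 to 4312 in LPD and 448 to 4941 in NPD lines. All 7 primitive endoderm markers had a higher mean log2 value in LPD (median 0.34, none with an unadjusted limma p under 0.05). Their arithmetic means did not all follow, with Dab2 at 823 in LPD and 826 in NPD and Gata6 at 321 in both. NPD line 15 was the lowest of all lines for Dab2 (103), Gata6 (39.4) and Foxa2, one of the defining markers, listed at 0. It was also the lowest for Gata4 (67.6), Sox17 (11.6) and Sox7 (66.8). For Pdgfra it was at 160, and LPD line 6 was lower (98). In bulk samples fewer cells of a type and less RNA per cell cannot be told apart, and the part of these markers in the members' differences was not tested. Antisense or overlapping gene models lie on the opposite strand of Zfp36 (Gm44710), Zfp36l1 (Gm26669) and Phlda1 (Gm28592). None of these gene models is among the genes with expression values. The strand setting of the libraries is not given in the sources used here, so any reads from these gene models cannot be told apart from those of the members.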

How the data were processed

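Poly(A) mRNA from 10 ESC lines was sequenced. The authors trimmed reads with cutadapt, quantified GRCm38 transcripts with Salmon and tested them with sleuth 0.30.0. The authors deposited a normalised signal per gene, an estimated count scaled per line by DESeq2 as its name says. How transcripts were summed to genes is not given in the sources used here. Values were not whole reads (63.9% to 69.7% of low values were whole multiples of 1 read within 0.15), so no count model was run.

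Tests covered the 14354 of 20206 genes whose mean reached 10, on log2(value + 1), with limma 3.58.1 (R 4.3.3, eBayes with trend) and Benjamini-Hochberg adjustment at 0.1. Single genes were also tested by two-sided exact permutation. P-values of the diet comparison set the difference between diets against the spread between lines. All columns were mapped (0 were not).

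Members and gene lists were chosen with earlier results of these data known. Named genes were the members, up to 3 genes per list with the smallest p, list genes without overlap between diets, and the gene most like each member. Marker genes and the relatives in level ratios were named after their values were seen. Alternatives were a pseudocount of 0.1 or 10, a minimum mean of 100 or none, equal totals, quantile normalization, limma without trend, robust or with array weights, a depth covariate, thinning to equal depth, an exact Mann-Whitney test, and lines left out. The limma step was tested on simulated data. Other steps used Python 3.11.15 (pandas 2.3.3).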

Additional observations from a re-analysis of the deposited data

Results flagged for a closer look

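In the groups of 5 lines, each member was examined for a single line far from the others (20 groups, of which chance flags about 1 in 20). There were 2 such lines, where the gap to the nearest line took up most of the range of the group. Ier3 in LPD line 40 was at 515, where the next LPD line was at 139, and the gap was 0.92 of the range. Ier5 in LPD line 6 was at 273, where the next was at 101, and the gap was 0.88 of the range. Without the first the Ier3 log2 fold change was -0.93 instead of -0.52, and without the second that of Ier5 was -0.09 instead of 0.23.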

How the results depend on the processing

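Of 230 values of single members over 23 alternatives, 226 kept their direction and their side of an adjusted p of 0.1. No gene passed that level in the main limma fit (smallest adjusted p 0.207), so keeping the side says little about robustness. The Mann-Whitney setting reused the limma fold change, so its direction could not change. A lost unadjusted limma p under 0.05, as for Ier2 (0.0558) and Zfp36 (0.0776) with depth as a covariate, was not counted. Without LPD line 40, 3 passed an adjusted p under 0.1, Nr4a1 (1.10, adjusted p = 0.0715), Arc (2.10, adjusted p = 0.0941) and Phlda1 (1.80, adjusted p = 0.0219), and Ier5 reversed to -0.09 without LPD line 6 (up to 0.36 without LPD line 20, 0.51 after thinning to equal depth and 0.10 with depth as a covariate). Over all genes, 0 were called with limma at an adjusted p under 0.1 (721 at an unadjusted p under 0.05), 1 with array weights, and 0 to 40 with 1 line left out, 40 being without LPD line 40. The members with an unadjusted p under 0.05 numbered 5, against 7 with array weights and 3 with depth as a covariate. They numbered 3 with the exact Mann-Whitney test (Zfp36, Nr4a1 and Phlda1, but not Arc), and 5 to 6 with 1 line left out. At that p 408 of 14354 genes were higher in LPD. The number was 458 with array weights, 324 with the covariate, 271 with Mann-Whitney, and 322 to 529 with 1 line left out. The members whose diets did not overlap numbered 0, against 0 to 4 with 1 line left out, 4 being without LPD line 40. The members with an exact permutation p under 0.05 numbered 4, where 2.8% of all genes were higher in LPD at that p. They numbered 2 (without NPD line 36) to 6 (without LPD line 40) with 1 line left out. Without LPD line 4 and NPD line 15 they numbered 0, where the smallest p of 4 and 4 lines is 0.0286. The share of all genes at that p was not worked out with lines left out. Of the genes under an unadjusted p of 0.05, 56.6% were higher in LPD, against 40.2% after rescaling to equal totals, 46.2% without a filter (1021 genes) and 47.7% without LPD line 6, while the members under that p and the 9 higher members were the same in number after rescaling. The causes were not tested. No paired analysis was possible because the diets share no line numbers. Depth limits the low values most, Ier5 in particular.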
